A study of Mus musculus with 4 samples.

Results

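The regions described here are Trim33 peaks of mouse T helper 17 (Th17) cells that lie inside very long genes, over 1000 bp from gene ends. Trim33 binding was mapped by chromatin immunoprecipitation followed by sequencing (ChIP-seq), and the deposited list gives 1 value per peak for the merged replicates. A peak belongs to the set when its summit, the point of highest signal, lies on chromosomes 1 to 19, inside a protein-coding gene body and over 1000 bp from the end of every protein-coding gene. The longest gene that holds the summit, called the host gene, must be 200 kb or longer. The set holds 2350 of the 27050 deposited peaks, or 8.82% of the 26631 peaks on these chromosomes, and its hosts are 501 of 945 protein-coding genes of that length. Of the 2350 summits, 39 lay in another protein-coding gene as well. The choice used positions only, not enrichment.

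The series has 2 Trim33 ChIP libraries, made with the Bethyl antibody A301-060A, and 2 input DNA libraries, made without antibody. All 4 came from C57BL/6 naive CD4+ T cells of spleen and lymph nodes. The cells were turned into Th17 cells in culture on plates coated with antibodies to CD3 and CD28, with IL-6, TGF-b and antibodies to IL-4 and IFN-g. The labels name no genotype, age or mouse, and do not say whether the libraries came from separate cultures. The list holds no value per library, so the depth and the spread between cultures are unknown here, no test between samples could be made, and every comparison below is a description. Intervals are 95% exact intervals that cover counting error only. The list has no expression values, so the labelled cell type could not be checked against its markers.

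Trim33 is a ubiquitin ligase of the tripartite motif family with a PHD finger and a bromodomain, which read histone tails. It binds SMAD2 and SMAD3 and takes part in TGF-beta signalling, a signal that Th17 cells need to form. Most of the sequence of a long mammalian gene is intron, and introns can hold enhancers, alternative promoters and whole smaller genes. The longest mammalian genes encode, in large part, proteins of neurons and synapses, and others encode transcription factors and signalling proteins used in lymphocytes.

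A few summits inside long genes fell on an annotated transcription start, and there RefSeq sequence tables show what lay under the peak. RefSeq start windows (build GRCm38.p6, 250 bases before to 50 bases after a start) held 44 of the 2350 summits (1.87%, 1.36% to 2.51%). In 38 cases the start belonged to the host gene itself. The 6 of these regions in different genes with the highest fold enrichment are shown, with a 7th in Ablim1 that was chosen later because it lies within the densest group of summits. Each run covers 170 bases before to 30 bases after the start on the strand of the transcript, and the capitals mark the 21 bases centred on the Trim33 summit. In order, Rsrc1 encodes a splicing-related protein, Zmiz1 a PIAS-like transcriptional coactivator, Sgms1 a sphingomyelin synthase, Cdyl a chromodomain corepressor and Map2k5 a MAP kinase kinase. The next is the start of a long noncoding RNA, Gm30284, inside Prkce, a protein kinase C gene, and the last is an inner start of Ablim1, which encodes an actin-binding LIM protein.
Rsrc1, chr3:66985492-66985691, plus strand: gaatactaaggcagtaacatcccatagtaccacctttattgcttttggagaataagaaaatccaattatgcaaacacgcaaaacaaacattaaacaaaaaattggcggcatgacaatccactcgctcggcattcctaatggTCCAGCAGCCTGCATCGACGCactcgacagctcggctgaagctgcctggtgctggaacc
Zmiz1, chr14:25459015-25459214, plus strand: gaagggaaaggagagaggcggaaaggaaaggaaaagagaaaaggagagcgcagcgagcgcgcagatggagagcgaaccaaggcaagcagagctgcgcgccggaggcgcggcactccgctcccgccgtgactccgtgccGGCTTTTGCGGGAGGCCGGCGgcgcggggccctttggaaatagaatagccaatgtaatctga
Sgms1, chr19:32388483-32388682, minus strand: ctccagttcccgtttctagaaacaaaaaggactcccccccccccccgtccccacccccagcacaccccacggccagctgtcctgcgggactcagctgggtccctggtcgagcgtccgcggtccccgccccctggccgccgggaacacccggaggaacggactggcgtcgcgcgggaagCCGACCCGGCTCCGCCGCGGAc
Cdyl, chr13:35741232-35741431, plus strand: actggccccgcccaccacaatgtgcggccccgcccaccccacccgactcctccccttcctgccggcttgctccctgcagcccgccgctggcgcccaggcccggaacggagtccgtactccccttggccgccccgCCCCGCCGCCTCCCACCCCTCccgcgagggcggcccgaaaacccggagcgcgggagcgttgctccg
Map2k5, chr9:63377873-63378072, minus strand: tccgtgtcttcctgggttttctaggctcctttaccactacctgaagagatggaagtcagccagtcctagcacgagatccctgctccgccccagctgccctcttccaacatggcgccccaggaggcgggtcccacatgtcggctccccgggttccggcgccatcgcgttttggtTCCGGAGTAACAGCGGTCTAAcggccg
Gm30284 in Prkce, chr17:86444958-86445157, minus strand: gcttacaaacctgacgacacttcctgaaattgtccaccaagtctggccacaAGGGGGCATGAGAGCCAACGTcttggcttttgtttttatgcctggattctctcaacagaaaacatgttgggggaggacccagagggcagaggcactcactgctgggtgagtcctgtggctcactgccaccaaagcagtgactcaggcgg
Ablim1, chr19:57118995-57119194, minus strand: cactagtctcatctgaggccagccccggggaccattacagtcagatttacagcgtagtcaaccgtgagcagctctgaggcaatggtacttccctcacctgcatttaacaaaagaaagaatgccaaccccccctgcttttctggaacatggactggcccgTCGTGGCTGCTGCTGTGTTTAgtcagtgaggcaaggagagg

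The fold enrichment, which is the authors' ratio of signal at the summit over background, was 11.2 at the Rsrc1 start, 11.03 at Zmiz1, 11.01 at Sgms1, 10.9 at Cdyl, 10.5 at Map2k5, 9.74 at Gm30284 and 6.51 at Ablim1. The first 5 of these were the only start-window summits of 10-fold or more. Counted from the start, the summit was at −19 in Rsrc1, −22 in Zmiz1, 18 in Sgms1, −26 in Cdyl, 13 in Map2k5, −109 in Gm30284 and −1 in Ablim1. Summits thus sat close to the start: 33 of the 44 were within 50 bases of it, with a median of −28.5. These inner starts were at very different depths in the host. Those of Zmiz1 (1.29 kb), Sgms1 (1.39 kb), Map2k5 (3.79 kb) and Rsrc1 (4.28 kb) were near the 5′ end of the gene. The summit at the Cdyl start was 81.6 kb from that end and the one at the Ablim1 start 196 kb. The summit at a start in Palld, which encodes an actin-associated protein, was 311 kb from the 5′ end. The one at a start in Fhit, a fragile site gene, was 709 kb from it.

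The start-window summits had a median fold of 6.50 (quartiles 5.08 and 8.45) against 6.11 for the other long-gene peaks. Their peaks were wider, with a median of 249.5 bp (quartiles 211 and 375 bp) against 219 bp (172 and 290 bp). In genes under 200 kb, 6.82% of the intragenic summits lay in a start window (541 of 7937), so the 1.87% in long genes was the lower share. The start tables gave a strand for the hosts of 1880 of the 2350 summits and of 6254 of the 7937 in shorter genes. Both shares are therefore lower limits. Long genes had 467 inner start windows that lay over 1000 bp from all gene ends, and 39 of these (8.35%) held a summit. No such count is given for shorter genes. The shares of summits therefore do not show whether inner starts held summits less often in long genes.

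The base composition and a few short motifs were counted in the whole 300-base windows. The 44 windows had a median GC share of 63.8% (quartiles 52.4% and 70.7%) against 53.0% for all 31396 windows of that length. The AP-1 letters TGANTCA, searched on both strands, were in 7 of 44 windows (15.9%) against 7.84% of all windows. The ETS letters CCGGAA were in 7 (15.9% against 15.1%), the ROR letters AGGTCA in 9 (20.5% against 16.3%), the RUNX letters TGTGGT in 4 (9.09% against 16.7%) and the SMAD letters CAGAC in 22 (50% against 49.6%). No pair of these motifs has the same letters, but matches may overlap in a window. The Cdyl window held 1 RUNX, 1 ETS and 1 SMAD match, that of Map2k5 2 ETS matches, that of Gm30284 1 AP-1 and 1 SMAD match, and that of Ablim1 1 RUNX match. Each of these is a match of letters and not a measured site. The shares rest on few windows, whose GC share was higher than that of all windows, and the differences were not tested.

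The fold enrichment of long-gene peaks as a whole was close to that of other intragenic peaks. The median fold of the 2350 peaks was 6.12 (interval of the median 6.00 to 6.22, quartiles 5.03 and 7.98, range 2.52 to 45.8). Intragenic peaks of shorter genes had a median of 5.93 (5.90 to 6.00, quartiles 4.89 and 7.66), peaks at gene ends 5.80 (quartiles 4.68 and 7.54) and peaks outside genes 6.16 (quartiles 4.997 and 8.07). The interval of the long-gene median began just above the upper end of that of the shorter genes, and the quartiles of all 4 classes overlapped widely. High peaks were somewhat more frequent: 313 long-gene peaks (13.3%, 12.0% to 14.8%) reached 10-fold or more, against 11.1% of all peaks on these chromosomes, 10.2% in shorter genes (9.54% to 10.9%) and 8.94% at gene ends. The share in long genes was near that outside genes, 13.2% (12.5% to 13.9%). Of the 100 highest peaks, 15 were in long genes, 38 in shorter genes, 41 outside genes and 6 at gene ends. Width gave no contrast with shorter genes (medians 220 and 217 bp), whereas peaks at gene ends had a median of 258 bp.

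**Figure D1:**
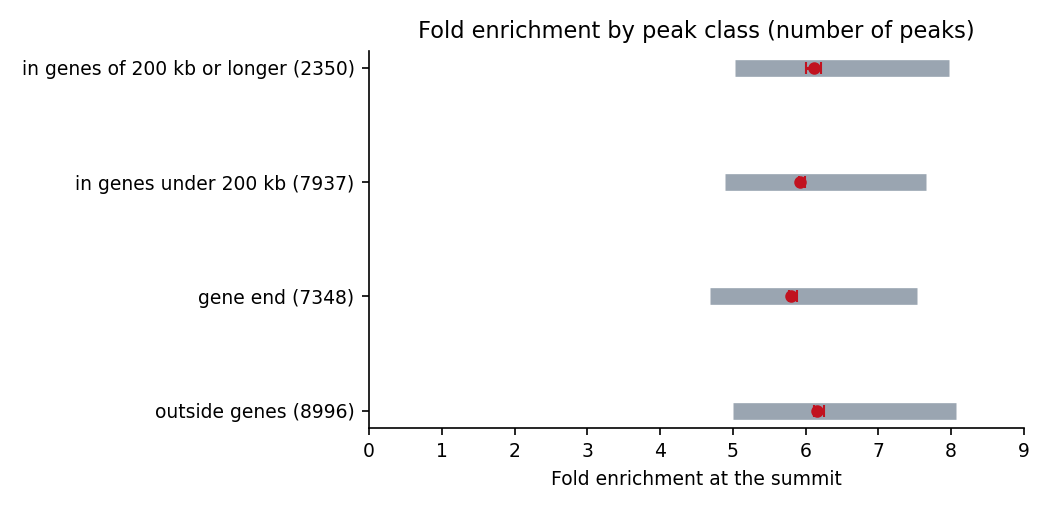
Fold enrichment at the summit (linear x axis, no unit) of 4 classes of peaks on chromosomes 1 to 19, with the number of peaks in brackets. Grey bars span the quartiles and red points are medians with 95% exact intervals. The bars overlap almost wholly, with medians from 5.80 at gene ends to 6.16 outside genes and 6.12 in long genes.

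The highest long-gene peak of all was inside Nell2, which encodes a secreted glycoprotein best known in neurons, and ranked 3rd among the peaks of these chromosomes. It had 45.8-fold enrichment at chr15:95276490-95277039 (mm10), 57.3 kb from the nearest gene end, and the only other Nell2 peak had 12.1-fold. Slco3a1, an organic anion transporter gene, held the next 2, of 37.1-fold and 36.7-fold, and a further one of 22.4-fold. These 3 lay within a run of 9 summits that spanned 22.4 kb, and the other 6 of the run had 5.39-fold to 7.77-fold. Mllt3, which encodes a reader of acylated histones in elongation complexes, had 31.8-fold at chr4:87974485-87974950, 58.8 kb from its 5′ end, and 8 other peaks of 3.98-fold to 11.7-fold. In Sik3, a salt-inducible kinase gene, 1 peak of 26.04-fold stood at 164.01 kb from the 5′ end, beside 5 others of 4.55-fold to 6.31-fold within 7.85 kb.

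The next highest folds were spread over other hosts. Fstl4, a follistatin-like gene, and Atxn1, which encodes a partner of the repressor Capicua, both reached 25.4-fold, Gse1 23.4-fold, Asap1, an Arf GTPase-activating protein gene, 23.1-fold, and the zinc finger gene Glis1 22.4-fold. The median fold in these genes was 6.31 over 6 peaks in Fstl4, 7.76 over 17 in Atxn1, 6.26 over 10 in Gse1 and 5.82 over 10 in Asap1. Glis1 had 1 other peak, of 7.57-fold. Some of these genes had further peaks of 10-fold or more: 3 in Atxn1, 1 of 15.7-fold in Fstl4 and 1 of 13.7-fold in Asap1, whereas Gse1 and Glis1 had none.

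Density, in contrast to fold, differed with gene length. The interior of a gene is here its body less 1000 bp around every protein-coding gene end, with each base counted for the longest gene. Long genes had 5.92 peaks per Mb of interior (5.68 to 6.16) over 397 Mb, and shorter genes 14.5 per Mb (14.2 to 14.9) over 546 Mb, a ratio of 0.407. Long genes made up 42.1% of all interior sequence but held 22.8% of the intragenic peaks. Below 200 kb density hardly moved with length, at 14.9 per Mb in genes under 50 kb, 14.4 at 50 to 100 kb and 14.3 at 100 to 200 kb. It then went down in each step, to 10.8 per Mb (10.1 to 11.4) at 200 to 300 kb, 6.97 (6.51 to 7.46) at 300 to 500 kb, 3.82 (3.46 to 4.21) at 500 to 1000 kb and 0.794 (0.603 to 1.03) in the 55 genes of 1000 kb or longer. The intervals of these 4 steps did not overlap, but they treat each summit as independent. Summits within a gene often lay close together, so the intervals are too narrow for a comparison between genes. The median fold was alike in the 4 groups, from 5.91 to 6.19.

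Peaks per gene therefore did not grow with length. The mean was 2.54 at 200 to 300 kb, 2.65 at 300 to 500 kb, 2.52 at 500 to 1000 kb and 1.05 above. Across the 945 genes, Spearman's rho between length and number of peaks was −0.109, a description over genes that are not independent. The share of genes with 1 or more peaks was 53.0% over all long genes. It was 62.1% at 200 to 300 kb, 50.2% at 300 to 500 kb, 42.9% at 500 to 1000 kb and 30.9% (19.1% to 44.8%) above. The 3 longest genes, Ptprd (2271 kb), Cntnap2 (2241 kb) and Lsamp (2197 kb), had no peak in their interiors, and all 3 encode adhesion or receptor proteins of neurons. Next to the length minimum, Plcxd3 (200.1 kb) and Pcbp3 (200.3 kb) had 1 peak each, and on the other side Atp9b (199.9 kb) had 6 and Sergef (199.7 kb) 1.

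**Figure D2:**
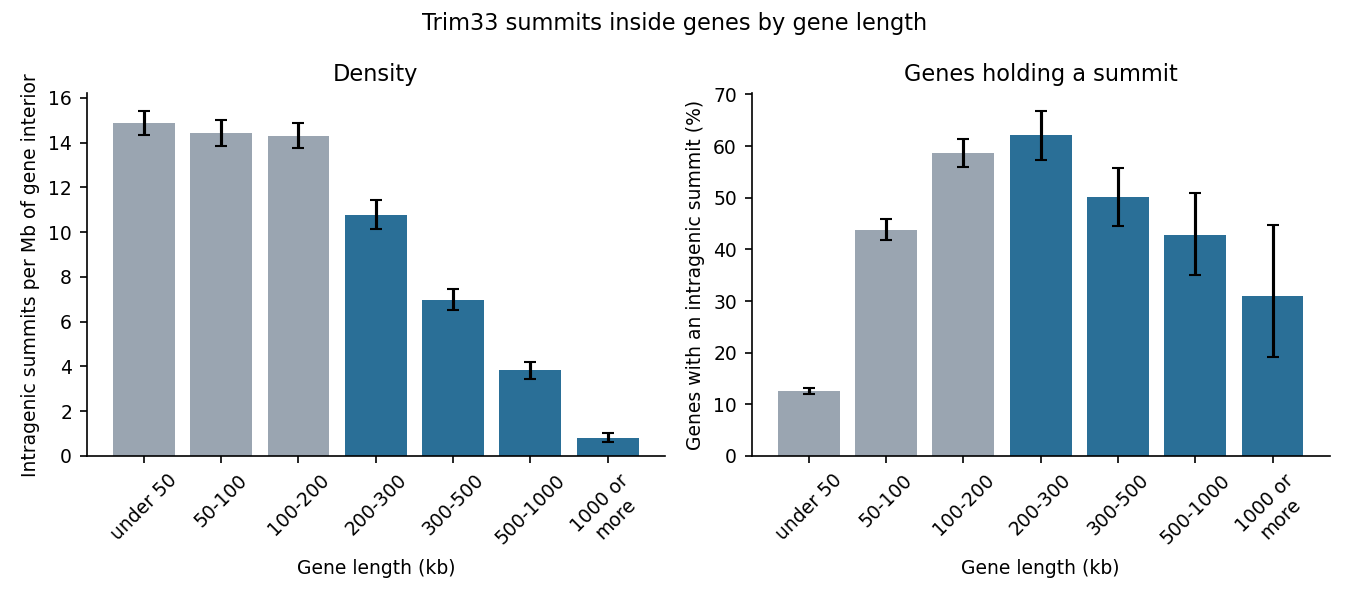
Left, intragenic Trim33 summits per Mb of gene interior by gene length in kb. Right, the percentage of genes with at least 1 such summit. Grey bars are genes under 200 kb, blue bars long genes, and error bars are 95% exact intervals. Density is near 14 per Mb up to 200 kb and then falls in every step to 0.794.

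Density also differed between groups of long genes with different functions. Of 8 lists of genes, restricted to members of 200 kb or longer, 4 had a density above the 5.92 per Mb of all long genes and 4 below. For reference, genes under 200 kb had 14.5 per Mb. The 20 T cell transcription factor genes had 28.01 peaks per Mb (24.4 to 32.0), the 34 lymphocyte signalling genes 16.5 (14.5 to 18.8), the 38 ubiquitous cytoskeleton, trafficking and metabolic genes 13.5 (11.8 to 15.4) and the 11 chromatin regulators 13.4 (10.3 to 17.03). The 15 fragile site genes had 3.12 per Mb, the 24 muscle, matrix and epithelial genes 2.79, the 5 TGF-beta and SMAD genes 1.56 and the 85 synapse and neuronal genes 0.694 (0.521 to 0.905). The transcription factor density was 40.4 times that of the synapse list. The transcription factor list was broad, with Nfia, Nfib, Maml2, Maml3, Jazf1, Aff3 and Foxn3 beside Bach2, Rora and Runx1. Expression of these genes is not in the data used here. All 85 genes listed for the synapse were 200 kb or longer, against 20 of the 50 listed transcription factor genes. The lists share 7 genes, among them Auts2 and Dlg2, each in 2 lists.

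All 20 T cell transcription factor genes held a peak, as did 11 of 11 chromatin regulators, 32 of 34 signalling genes and 34 of 38 ubiquitous genes. This stands beside 53.0% of all long genes. The lists were chosen with earlier results of these data known, so these shares describe the lists and test nothing. Only 21 of 85 synapse genes (24.7%, 15.99% to 35.3%), 10 of 24 tissue genes and 2 of 5 TGF-beta genes held one. The fragile site list had a low density, yet 10 of its 15 genes (66.7%, 38.4% to 88.2%) held a peak. Median fold differed little, from 5.18 over the 3 peaks of the TGF-beta list to 7.16 over the 35 of the tissue list, against 6.12 in all. The lists thus differed in how many peaks they held more than in how high these were.

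**Figure D3:**
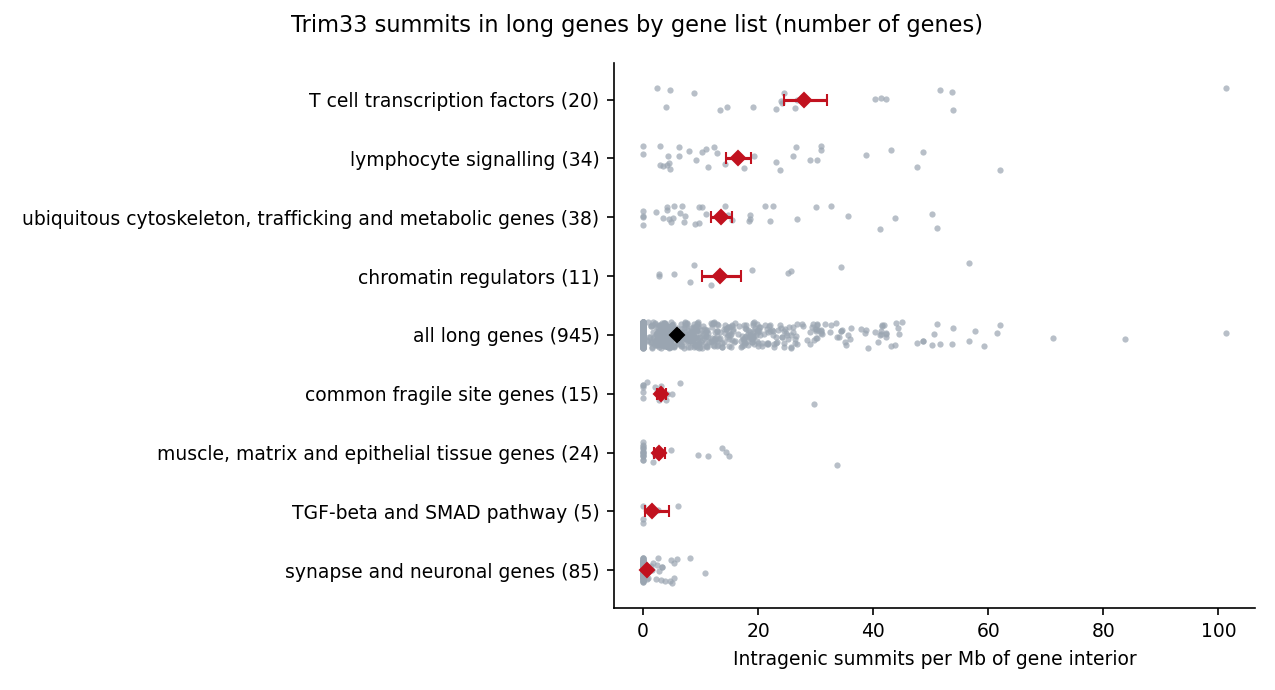
Intragenic Trim33 summits per Mb of gene interior in long genes, by gene list, with the number of genes in brackets. Grey points are single genes (jittered vertically), red diamonds the whole list and the black diamond all 945 long genes, with 95% exact intervals. T cell transcription factors lie highest at 28.01 per Mb and synapse genes lowest at 0.694.

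Length and list went together, since the median length was 879 kb in the synapse list and 361 kb in the transcription factor list. Within 200 to 500 kb, where all long genes had 8.66 peaks per Mb, the 16 transcription factor genes had 31.0 (26.4 to 36.1), the 24 signalling genes 19.7, the 8 chromatin regulators 22.3, the 26 ubiquitous genes 18.6, the 14 tissue genes 6.78 and the 18 synapse genes 2.09 (1.17 to 3.44). The 4 TGF-beta genes had 2.20 (0.453 to 6.42), close to the synapse genes. The transcription factor list was thus still the highest and the synapse list the lowest in this range. Length was not fully matched, since all 18 synapse genes were of 300 to 500 kb. Conversely, without the synapse list density still went down with length, from 7.28 per Mb at 300 to 500 kb to 4.67 at 500 to 1000 kb and 1.47 above.

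Bach2, which encodes a repressor that restrains effector T cells, held the most peaks. Its 35 summits in 348 kb (chr4:32238413-32586109) made 10.1 per 100 kb, the highest density of any long gene with 5 or more. Their fold ran from 3.06 to 15.2 with a median of 5.66, and 3 reached 10-fold. The highest stood at 92.8 kb from the 5′ end, at chr4:32331036-32331284. Most Bach2 summits fell in the 5′ part of the gene: 33 lay within 228 kb of that end, and the other 2 were at 325 and 344 kb. A run of 8 covered 6.016 to 29.8 kb, with peaks of 8.67-fold at 10.04 kb, 9.56-fold at 11.5 kb and 10.6-fold at 12.5 kb. A run of 6 followed at 92.8 to 113 kb and one of 5 at 153 to 168 kb.

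Layout differed among other T cell regulators. Foxp1, a forkhead factor that keeps naive T cells quiescent, held 24 summits in 597 kb with folds of 3.84 to 13.7 (median 6.32). They ran from 1.38 to 545 kb from the 5′ end with no run of 5, and more of them lay in the 5′ part. The highest stood at 109 kb. Rora, a nuclear receptor that acts beside RORgt in Th17 cells, had 18 summits of 3.08-fold to 9.89-fold, none of 10-fold or more. All 18 lay beyond 313 kb from the 5′ end of the 735 kb gene. Runx1 and Runx2, which encode RUNX factors, had 12 and 15 summits with highest folds of 11.6 and 12.9. The other genes of the list ranged from 1 peak in each of Klf12 and Nfib to 17 in each of Hivep3 and Maml2. The highest single folds of the list were 15.7 in the forkhead gene Foxn3 and 15.7 in Jazf1, which had 7 and 8 peaks.

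Among signalling genes, Inpp4b, a phosphoinositide phosphatase gene, had 21 summits (4.73-fold to 11.7-fold) and Elmo1, which acts with Dock2 to activate Rac in migrating lymphocytes, had 20 (3.36-fold to 17.2-fold). In Elmo1 all 20 lay within 221 kb of the 5′ end of a 518 kb gene, the highest at 54.3 kb. Pde4b, a cAMP phosphodiesterase gene, had 12 summits with 1 of 20.2-fold and a median of 5.51. The calcium channel gene Itpr1 had 16 of 3.87-fold to 10.5-fold, 9 of them within 25.3 kb. The 2 signalling genes without a peak were Dock1 and Themis, the latter a gene of T cell receptor signalling in thymocytes.

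**Figure D4:**
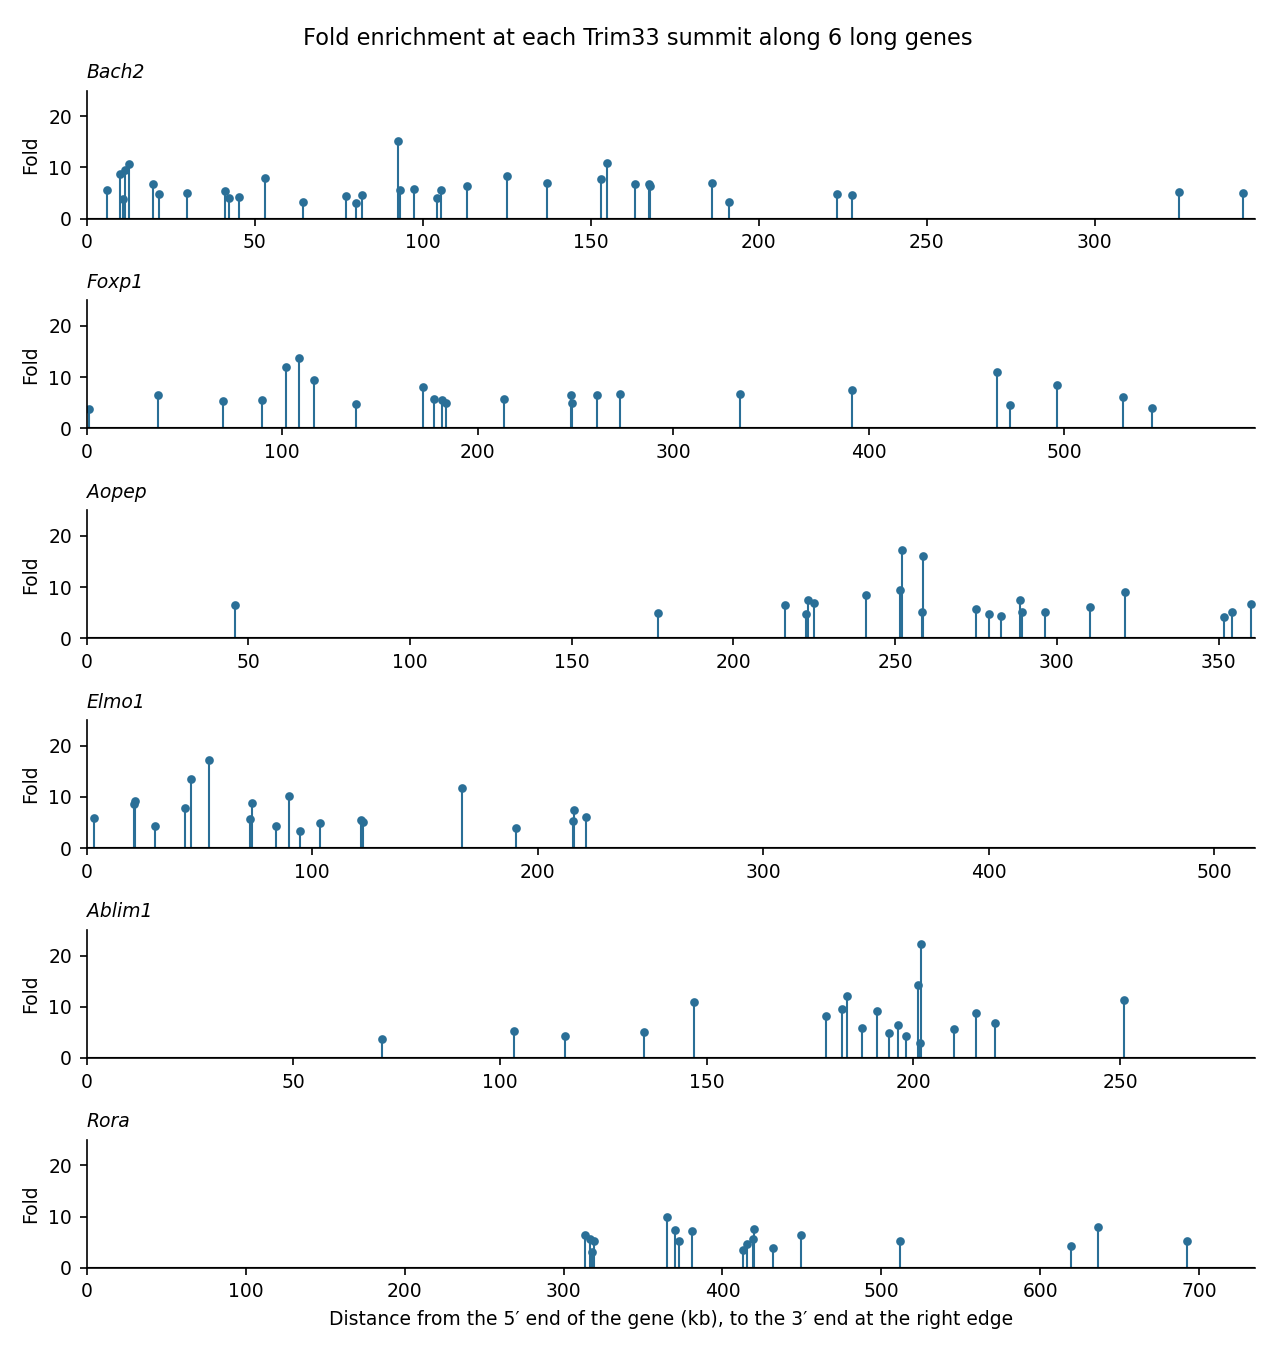
Fold enrichment (y axis, linear) at each Trim33 summit against distance in kb from the 5′ end of the gene, for 6 host genes drawn from end to end. Each stem is 1 summit. In Bach2 and Elmo1 the stems crowd towards the 5′ end, in Rora and Aopep they lie mostly in the 3′ part, and in Ablim1 14 stand within 40.9 kb.

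Chromatin regulators were led by Hdac4, a class IIa histone deacetylase gene, with 15 peaks (5.66 per 100 kb, 3.29-fold to 10.1-fold), and by Mllt3 in fold. Of the ubiquitous genes, Fars2, which encodes a mitochondrial phenylalanine tRNA synthetase, had 21 peaks and Atxn1 17, while Fto, an RNA demethylase gene, had 1 of 20.7-fold among 5. Dpyd and Magi1 were the longest genes of that list without a peak.

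In the fragile site and tissue lists a single gene held a large share of the peaks. Wwox, an oxidoreductase gene at a common fragile site, held 27 of the 64 peaks of the fragile site list, with folds of 2.52 to 14.0 and a median of 5.24, and without it the list had 1.89 per Mb. Lrp1b (2058 kb) and Macrod2 (1998 kb) had none. In the tissue list 11 of 35 peaks were in Ldlrad4, a gene named after its values were seen and known as an inhibitor of TGF-beta signalling, and without it the list had 1.96 per Mb. The highest folds of the tissue list were 13.1 in the collagen gene Col23a1 and 12.2 in the kinase gene Prkg1, and Sgcz and Sgcd, of the sarcoglycan family, had no peak. The TGF-beta list was small at this length, and Ldlrad4 was not counted in it. The 11 peaks of Ldlrad4 exceed the 3 of that whole list, so the low density of the TGF-beta list depends on where 1 gene is placed. Nedd4l, a ubiquitin ligase gene, had 2 peaks (5.65-fold and 5.18-fold). The latent TGF-beta binding protein gene Ltbp1 had 1 (4.92-fold), and Mecom, Bmpr1b and Prdm16 had none. In the synapse list, the highest folds were 17.6 in Ctnnd2, a catenin gene with 5 peaks, and 17.05 in Cacna1c, a calcium channel gene with 2.

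The distribution over all hosts was uneven. The 501 host genes held a median of 3 peaks (quartiles 1 and 6), 126 held 1 and 8 held 20 or more. The 57 genes with 10 or more held 806 peaks (34.3%), and 102 genes held 50% of the set. After Bach2 and Wwox the genes with the most were Foxp1, the aminopeptidase gene Aopep (22), Fars2, Inpp4b, Ablim1 (20), Elmo1, the SRY-box gene Sox5 (19) and Rora. Per 100 kb of interior, Zmiz1 (8.38), Ablim1 (7.13), Sik3 (6.21), Aopep (6.16), Mob3b (5.93), Nsmce2 (5.77), Hdac4, Runx1 (5.39) and Runx2 (5.37) followed Bach2. By chromosome, density ran from 3.80 per Mb on chromosome 5 to 10.5 on chromosome 19, with a median of 5.96.

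**Figure D5:**
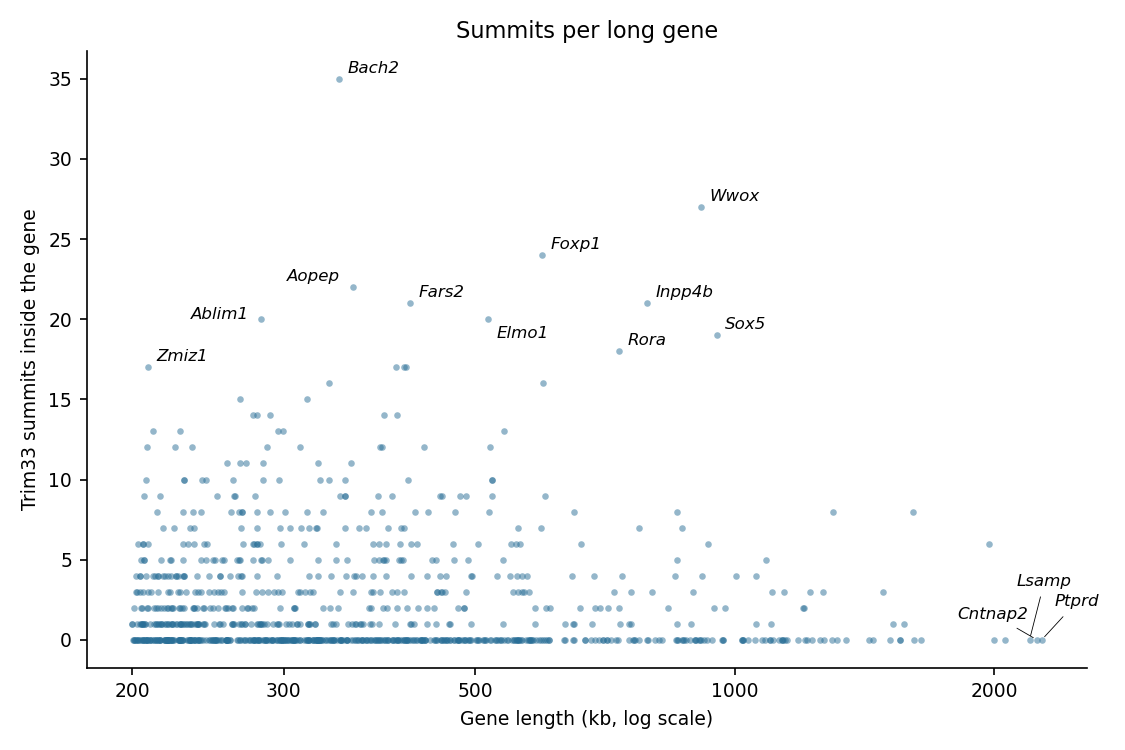
Number of Trim33 summits inside each of the 945 long genes (y axis) against gene length in kb (log x axis). Each point is 1 gene. Bach2 stands highest with 35 summits, and Ptprd, Cntnap2 and Lsamp at the right have 0.

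Summits within a gene often lay close to each other. Of the 2350, 1214 (51.7%, 49.6% to 53.7%) had another summit of the same gene within 10 kb, and 361 (15.4%) within 1 kb. The median distance between neighbours was 15.003 kb (quartiles 3.66 and 43.8 kb). In shorter genes the share within 10 kb was 51.2%, at a higher density. The median fold was 6.22 for summits with such a neighbour and 6.07 for the 1136 without. Linking summits up to 10 kb apart gave 29 runs of 5 or more, which held 176 summits. The largest was in Ablim1, with 14 of its 20 summits at 179 to 220 kb from the 5′ end of a 283 kb gene, and it held the start shown above. Folds in that run went from 2.87 to 22.3 with a median of 7.505. The runs of 9 in Slco3a1 and Itpr1 came next, then that of 8 in Bach2.

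Position along the gene showed a weak lean to the 5′ side. The RefSeq start tables gave a strand for 707 of the 945 genes, with 1880 peaks. Of these, 1012 (53.8%, 51.5% to 56.1%) lay nearer to the 5′ end, against 60.7% in shorter genes. The first 50 kb held 362 peaks (19.3%), and the median fold was 6.11 both there and beyond. These stretches made up 11.4% of the summed interior of all 707 genes, with or without a peak. Because the longest genes held few peaks per Mb, setting 19.3% against 11.4% does not measure a lean within genes. Over 10 equal stretches of the gene the share ran from 11.9% in the second to 8.46% in the eighth. The median distance of the 2350 summits to the nearest gene end was 73.0 kb, and 1502 (63.9%) lay over 50 kb away.

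Long genes with an inner peak also had peaks at their ends more often. A summit within 1000 bp of either end was found in 208 of the 501 host genes (41.5%, 37.2% to 46.0%) and in 34 of the 444 long genes without an inner peak (7.66%, 5.36% to 10.5%), against 25.6% of all long genes. In the 190 genes with 5 or more inner peaks it was 51.1%. Bach2, Elmo1, Inpp4b and Wwox had such an end summit, whereas Foxp1, Rora, Ablim1 and Sox5 did not. By list the share was 65.8% in ubiquitous, 61.8% in signalling and 55% in transcription factor genes, and 4.71% in synapse genes.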

How the data were processed

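The deposited list was made by the authors on merged replicates, as the peak names say. The submitters' processing notes name the trimmer Trim Galore 0.3.7, the aligner Bowtie 1.2.1.1, the peak caller MACS2 2.1.1.20160309 and the build mm10. The control, the threshold and the stage of merging were not given in the sources used here. A merged list does not show which library supports a peak. The authors deposited, for each peak, a fold enrichment (a ratio), a q-value as −log10 (lowest value 2.10) and a score. The score held the −log10 q times 10, cut to a whole number, and served no further purpose.

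Positions were counted from 1 and summits placed in 20665 protein-coding genes of RefSeq (GRCm38.p6, the mm10 assembly) with Python 3.11.15, pandas 2.3.3 and scipy 1.17.1. Placement was checked on simulated summits. The 419 peaks on X and Y, and all peak sequences outside RefSeq start windows, were not analysed here. Start windows were matched by symbol for 707 of 945 long genes. Motifs of 5 or more letters were counted on both strands. No resampling over regions was made. Members, lists and named genes were chosen with earlier results of these data known. Named genes are the 10 with the most peaks, the 10 densest with 5 or more, the hosts of the 10 highest peaks, in each of 8 lists the 2 with the highest fold and up to 2 longest with none, and the 3 longest. Alternatives changed the length minimum, the distance from ends, the peak set, the point that places a peak, the gene table and the distance between neighbours.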

Additional observations from a re-analysis of the deposited data

How the results depend on the processing

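Of 8 lists, 4 were denser than all long genes under every alternative run, and no list crossed that density. No alternative moved a gene, such as Ldlrad4, from one list to another. Of 64 list values under alternatives 60 stayed within 1.5 times, and the other 4 were of the TGF-beta list, which has few peaks. With 150 kb as the minimum, density was 6.99 per Mb. With 300 kb there were 1305 peaks, 4.35 per Mb, in 46.0% of genes. Peaks at or above the median fold left 1228, with a median of 7.86-fold, 3.09 per Mb, 43.0% of genes and 35.4% with a neighbour within 10 kb. With −log10 q at or above the median these were 1193, 7.97, 3.004, 40.3% and 38.4%. These counts are lower by construction. The share with a neighbour was 39.4% within 5 kb and 69.7% within 25 kb. Larger distances from gene ends, peak middles and a table without Gm and Rik genes kept each of these values within its interval or, for counts, within 1.5 times. No paired analysis was possible because the columns carry no replicate numbers. The depth of each library is unknown, so a gene without a peak may hold binding below the calling threshold.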

Other observations

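Genes outside the 8 lists held 62.8% of the long-gene peaks (1475 in 365 of 720 genes), and the runs of 5 or more included genes best known in other tissues. These were picked after their values were seen. Oprm1, the mu opioid receptor gene, had 5 summits within 7.15 kb with folds of 4.43 to 14.5 and a median of 10.5, the nearest 224 kb from its 5′ end. Cubn, which encodes an endocytic receptor of kidney and gut, had 5 within 12.2 kb, up to 15.8-fold, at 72.2 to 84.4 kb from its 5′ end. A further Cubn peak of 21.8-fold stood at 61.7 kb, just beyond the 10 kb limit for linking. Grk5, a G protein-coupled receptor kinase gene, had 7 within 16.3 kb, up to 15.2-fold, and Slc24a3, a sodium-calcium exchanger gene, 7 within 29.9 kb, up to 11.2-fold. Med12l, a paralogue of a Mediator subunit gene, had 6 within 19.2 kb, up to 17.3-fold. Oprm1 and Cubn had no summit within 1000 bp of either end, and Grk5 and Slc24a3 had one.

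Long-gene summits lay within 1000 bp of 4 microRNA hairpins: Mir7687 in Gse1 (163 bp, 5.30-fold), Mir491 in Focad (492 bp, 6.36-fold), Mir8104 in Ppm1h (558 bp, 5.15-fold) and Mir1904 in Pde4d (740 bp, 7.10-fold).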
